A study of Mus musculus with 5 samples.

Results

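The genes described are Tff3, Mep1a, Anxa13, Cela1, Spink1, St14, Inava, Meltf and Entpd2, 9 of the 19752 genes that the array's probes could be named as. They encode proteins known from the epithelia of gut, pancreas and other mucosae, and they were chosen by their log2 ratios of Fra-1hep over control liver on these same arrays. That rise is given below as a description, without a test. Each gene was read by 1 probe, printed as 1 spot per array, so no second probe of the same gene was at hand to compare with. The 9 probes were matched through their RefSeq accessions, and each gave a signal well above background everywhere, in both dyes and on all 5 arrays.

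Liver RNA came from C57BL/6J mice aged 26 to 28 weeks that had eaten a diet with 45% of its energy as fat from 4 weeks of age. Fra-1hep mice overexpress Fra-1, the AP-1 transcription factor subunit encoded by Fosl1, in hepatocytes; no source used here names the promoter that drives it. Each of 4 Fra-1hep mice had its own array, labelled with Cy5 against a Cy3-labelled pool of 5 wild-type mice, and on 1 more array the control pool carried Cy5 and a Fra-1hep pool carried Cy3. The members of that Fra-1hep pool are not named, so it may add no animal to the 4 mice. The control pool entered every array, and the spread among control mice was not measured. Mouse 1 was hybridised on a different slide from the other 4 arrays.

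The label of the tissue was checked against 10 hepatocyte transcripts, among them Alb, Ttr and Hnf4a, and all 10 were measurable in Fra-1hep RNA on every array. Values of the 4 mice are always given in the order of mice 1, 2, 3 and 4. Fosl1 itself lay near background. Its Fra-1hep channel was above background on 0 arrays and its control channel on 1, with log2 ratios of -0.37, -0.23, 0.11 and 0.12 in the 4 mice in order, and -0.09 with dyes swapped, so no fold was drawn and the labels were not checked by it. In a bulk sample, more cells of a type and more RNA per cell cannot be told apart.

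Epithelia that face a lumen are equipped with secreted peptides that protect mucus and mucosa, with proteases held at the apical membrane, with inhibitors that keep those proteases in check, and with enzymes that split nucleotides outside the cell. AP-1 dimers bind the TRE, a short palindromic DNA element, and cells of many epithelia use AP-1 in repair and differentiation. Hepatocytes are epithelial cells too, but most of the genes described here are better known from other organs than from the adult liver.

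Promoter sequences of RefSeq, running from 250 bases before to 50 bases after a gene's start in GRCm38.p6, were present for 5 of the 9 genes, Cela1, Entpd2, Inava, Meltf and Mep1a. They were searched on both strands for the TRE (TGANTCA) and for the related CRE (TGACGTCA), neither of which contains the other. The TRE letters stood in 1 of the 5, that of Entpd2, and in 7.81% of 32851 mouse promoter windows of this length. The CRE letters stood in 0 of the 5 and in 1.79% of all windows. The windows of the gene with the smallest and of the gene with the largest rise are shown, each 5′ to 3′ on the gene's strand, with the TRE letters in capitals. The match in Entpd2 begins 99 bases before the start, and Mep1a has none in this window.
Entpd2, chr2:25395624-25395923, plus strand: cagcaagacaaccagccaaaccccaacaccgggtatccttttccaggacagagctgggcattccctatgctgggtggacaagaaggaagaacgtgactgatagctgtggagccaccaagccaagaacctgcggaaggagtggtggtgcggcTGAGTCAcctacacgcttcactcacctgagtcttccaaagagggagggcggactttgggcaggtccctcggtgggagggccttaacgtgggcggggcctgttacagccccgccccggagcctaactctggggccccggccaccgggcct
Mep1a, chr17:43502724-43503023, minus strand: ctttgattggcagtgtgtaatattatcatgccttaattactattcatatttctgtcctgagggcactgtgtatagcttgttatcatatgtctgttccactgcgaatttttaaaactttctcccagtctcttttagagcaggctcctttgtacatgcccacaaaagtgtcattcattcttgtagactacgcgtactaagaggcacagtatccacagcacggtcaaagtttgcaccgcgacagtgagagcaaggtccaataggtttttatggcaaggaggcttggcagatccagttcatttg

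Changes are log2 ratios of Fra-1hep over control after background correction and loess. The fitted value is the genotype coefficient of limma ± its moderated standard error over the 4 mice and the swapped pool, in which that pool weighs as much as the 4 mice together. Intensities are log2 normalized values of a probe, which can be set against each other across arrays but not across genes. Between the channels they still carry dye bias. Of 21521 features tested, 11.2% were higher and 15.4% lower in Fra-1hep at an adjusted p under 0.05. All 9 genes were among the higher ones. All 9 were at least 2-fold higher on all 5 arrays, which 0.367% of the features were, and higher on all 5 arrays, which 16.1% were. Because the genes were picked for this rise, nothing follows from these counts.

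The secreted and inhibitory proteins come first. Tff3 encodes trefoil factor 3, a small peptide that goblet cells release with mucus. Its log2 ratios were 3.94, 3.57, 3.75 and 4.22 in the 4 mice in order, and 3.93 with dyes swapped. The fitted rise was 14.9-fold (log2 3.90 ± 0.11), the third highest of all features. The control channel lay between 7.97 and 8.40 on the 5 arrays and the Fra-1hep channel of the 4 mice between 11.86 and 12.54. The 2 channels thus kept well apart on every array.

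Spink1 encodes a Kazal-type inhibitor that protects the pancreas from trypsin; the mouse gene also went by the name Spink3. Log2 ratios stood at 3.04, 2.96, 2.73 and 2.93 in the 4 mice in order, and 3.13 with dyes swapped, and the fitted rise was 8.13-fold (3.02 ± 0.07). Control intensity ran from 7.87 to 8.09 and Fra-1hep intensity of the mice from 10.79 to 11.02. It had the smallest spread among mice of the 9, with an SD of 0.13, where the median SD of the 9 was 0.19 and that of all features 0.12.

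The proteases form the next group. Mep1a encodes the alpha subunit of meprin, a metalloprotease of the brush border of gut and kidney. Its log2 ratios were 4.10, 4.31, 3.55 and 4.58 in the 4 mice in order, and 4.02 with dyes swapped. The fitted value of 16.9-fold (4.08 ± 0.17) was the second highest of all features. In raw terms the control spot read 79, 79, 71 and 75 intensity units on the arrays of mice 1 to 4, over local backgrounds of 20, 25, 27 and 28. The same spot read 3237, 3068, 2143 and 3095 in the Fra-1hep channel, over backgrounds of 61, 57, 55 and 51. The control transcript was thus near the dim end of what the array could read, and the Fra-1hep transcript was not.

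St14 encodes matriptase, a membrane-bound serine protease of epithelial surfaces. It gave log2 ratios of 3.29, 2.93, 2.36 and 3.16 in the 4 mice in order, and 2.84 with dyes swapped (7.41-fold, 2.89 ± 0.16). Mouse 3 was the lowest here, as it was for Mep1a, and the Fra-1hep intensity of the mice ran from 9.91 to 10.63. Cela1 encodes an elastase that is a digestive enzyme of the rodent pancreas. Its ratios of 3.51, 3.44, 3.15 and 3.56 in the 4 mice in order, and 3.26 with dyes swapped were tighter, with a fitted rise of 10.1-fold (3.34 ± 0.08). Intensities of 11.06 to 11.40 in the mice stood against 7.55 to 7.99 in the control channel.

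Proteins of the membrane and the cell junction make up the rest. Anxa13 encodes an annexin, a calcium-dependent membrane-binding protein known from gut epithelium. Its log2 ratios were 3.58, 3.65, 3.29 and 3.39 in the 4 mice in order, and 3.53 with dyes swapped, fitted at 11.4-fold (3.51 ± 0.08). Control intensity was 7.40 to 7.77 and that of the mice 10.81 to 11.06. Inava encodes a protein that acts at epithelial junctions and in innate immune signalling through partners of the cytohesin family. Its ratios were 4.11, 3.82, 3.71 and 3.85 in the 4 mice in order, and 3.62 with dyes swapped, fitted at 13.4-fold (3.75 ± 0.08). For Inava the swapped pool lay below every mouse, while control intensity was 6.99 to 7.34 and that of the mice 10.81 to 11.12.

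Meltf encodes melanotransferrin, an iron-binding relative of transferrin that is anchored to the cell surface. Its log2 ratios spread from 3.04 in mouse 3 to 4.07 in mouse 1, with 3.56 and 3.60 in mice 2 and 4 and 3.60 with dyes swapped (fitted 3.58 ± 0.16). Mice ran from 10.46 to 11.08 in intensity and the control channel from 7.01 to 7.42, so the channels stayed far apart even in mouse 3. Entpd2 encodes an ectonucleotidase that splits extracellular ATP and that in normal liver is known from fibroblasts of the portal tract. It gave 2.15, 1.97, 1.96 and 2.24 in the 4 mice in order, and 2.37 with dyes swapped, the smallest rise of the 9 at 4.67-fold (2.22 ± 0.07). For Entpd2 the swapped pool lay above every mouse, and without that array the value was 2.08. Its control intensity, 9.91 to 10.17, showed that control liver held a clearly measurable amount of this transcript.

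**Figure D1:**
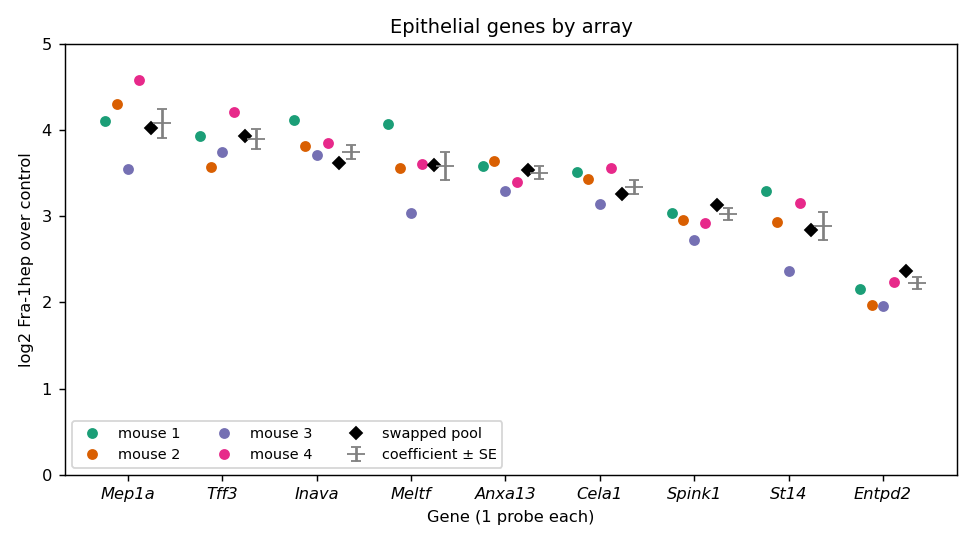
Log2 ratio of Fra-1hep over control (vertical axis) of the 9 epithelial genes on each of the 5 arrays, with circles for mice 1 to 4, black diamonds for the swapped pool and grey bars for the fitted coefficient ± its standard error. All points lie above 1.9, from 1.96 for Entpd2 in mouse 3 to 4.58 for Mep1a in mouse 4, and mouse 3 is the lowest mouse for 8 of the 9 genes.

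**Figure D2:**
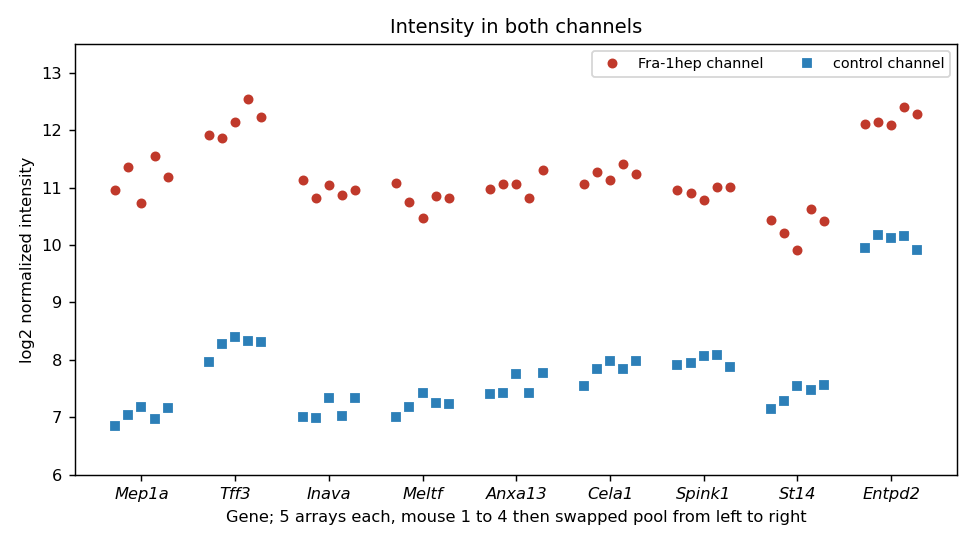
Log2 normalized intensity of each gene's probe in the Fra-1hep channel (circles) and the control channel (squares) on the 5 arrays, in the order mouse 1 to 4 and swapped pool. The channels do not overlap for any of the 9 genes, and Entpd2 has a control intensity of 9.91 to 10.17.

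The mice were not alike across the 9 genes. Mouse 3 was the lowest mouse for 8 of them and mouse 2 for the ninth, Tff3, while mouse 1 was the highest for 4, mouse 4 for 4 and mouse 2 for 1. The median log2 ratio of the 9 was 3.58, 3.56, 3.15 and 3.56 in the 4 mice in order, and 3.53 with dyes swapped, against medians over all features between -0.02 and 0.01. Among the 70 other features that were at least 2-fold higher on all 5 arrays, mouse 3 was the lowest for 35, or 50%, and the highest for 4. The lower values of mouse 3 were thus seen in many large rises besides those of the 9.

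Agreement between the dye orientations was close. The swapped pool fell inside the range of the 4 mice for 6 of the 9 genes, the exceptions being Spink1, Inava and Entpd2. The fitted dye effects of the 9 had a median size of 0.05 and reached 0.14 at most, in Entpd2, where the median size over all features was 0.08. If the pool was made of the same 4 mice, this agreement bears on labelling and hybridisation alone.

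In descending order of the fitted change the genes were Mep1a, Tff3, Inava, Meltf, Anxa13, Cela1, Spink1, St14 and Entpd2. The ranges of the 4 mice overlapped for 6 of the 8 neighbouring pairs. They did not overlap between Cela1 and Spink1, 0.32 apart, or between St14 and Entpd2, 0.66 apart. The genes were read in the same mice, and compared array by array these orders held on all 5 arrays, as did that of Inava over Meltf, 0.16 apart. The other 5 pairs changed order on 1 or 2 arrays.

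The size of the rises depended on how background was treated, since the control channel was dim for most of the 9. With the signals processed by the scanner software, Mep1a was 38.1-fold higher, Inava 28.4-fold, Meltf 23.9-fold, Tff3 19.7-fold, Anxa13 18.2-fold, Cela1 15.0-fold, St14 12.9-fold, Spink1 11.7-fold and Entpd2 5.09-fold. Tff3 then fell from the second to the fourth place, and Spink1 came after St14. The offset of 50 units added to both channels in the fit above draws ratios of dim spots toward 1, so its values are the smaller ones. With an offset of 0, Mep1a was at 27.7-fold and Inava at 21.0-fold. Entpd2, whose control spot was bright, kept a log2 value between 2.08 and 2.35 under all 15 alternatives.

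**Figure D3:**
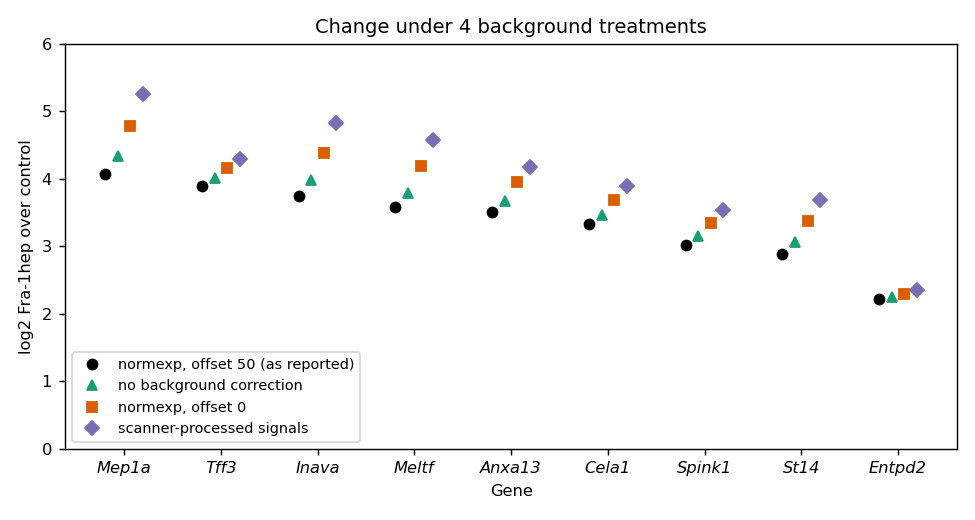
Fitted log2 change of Fra-1hep over control for each of the 9 genes under 4 treatments of background, with black circles for the reported values. The spread between treatments is widest for Mep1a, from 4.08 to 5.25, and narrowest for Entpd2, from 2.22 to 2.35.

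Genes related to the 9 were taken from lists of families, partners and cell types, 185 genes in all. Of these, 117 passed the filter on dim probes, of which 33 were higher, 13 lower and 71 did not pass the test. The calls below are those of limma over all features with Benjamini-Hochberg adjustment, to be read beside the 11.2% and 15.4% of all features that were higher and lower. The fitted changes of listed genes with a dim control channel depend on the treatment of background as those of the 9 do, so values with processed signals are given beside them where the fold moved by over 1.5 times.

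Family members of the secreted proteins gave no called rise. Tff2, a trefoil peptide of the stomach, had log2 ratios of 1.37, -0.24, 0.55 and 0.36 in the 4 mice in order, and 0.64 with dyes swapped and did not pass (0.58 ± 0.25, adjusted p = 0.132), though without mouse 2 it did (0.70, adjusted p = 0.0335). With processed signals Tff2 stood at 1.22. Tff1 stayed at background on all 5 arrays. Of 7 other Kazal inhibitors, Spink4 alone could be tested, and it fell by 0.42 (SE 0.06, adjusted p = 0.00414), its Fra-1hep channel above background on 1 array. The size of that fall is poorly fixed, since the value of Spink4 was -2.11 with processed signals. The genes for trefoil peptides and Kazal inhibitors therefore gave 0 rises and 1 fall among 2 tested.

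Relatives of the proteases showed 1 large rise. Tmprss2, which like St14 encodes a membrane-bound serine protease, had ratios of 1.45, 1.39, 0.86 and 1.58 in the 4 mice in order, and 1.80 with dyes swapped and rose by 1.56 ± 0.13 (adjusted p = 0.000377), or by 2.45 with processed signals. Tmprss4, another of these proteases, fell by 0.90 (SE 0.17, adjusted p = 0.00995), with all 5 arrays below 0. The 7 tested partners and relatives of St14 included 4 rises and 1 fall, with a median of 0.26 against -0.00 over all features. The other rises were small: Spint2, an inhibitor of matriptase (0.28 ± 0.06), Tmprss6 (0.26 ± 0.06) and Hpn (0.24 ± 0.07). With the spread of a control pool added to the error, only Tmprss2 of these 4 rises still passed. Tmprss6 lay at 0.07 without the swapped array, and Hpn failed without mouse 2, 3 or 4. Spint1, the other matriptase inhibitor, did not pass at 0.30, nor did Prss8, a protease activated by matriptase, at 0.09.

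Mep1b, which encodes the partner subunit of meprin alpha, was well above background on 1 array and could not be tested. Bmp1, an astacin protease like the meprins, rose by 0.48 ± 0.06 (adjusted p = 0.00162). The mice lay between 0.19 and 0.34 for Bmp1 and the swapped pool at 0.69, and without that array the value was 0.26. Among elastases and chymotrypsins Ctrb1 rose by 0.29 ± 0.06 (adjusted p = 0.0163, and 0.0581 with the control pool's spread), and Ctrl did not pass at 0.10. Cela2a, another pancreatic elastase gene, was not above background on any array.

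The other annexins did not rise as a family. Rises numbered 2 and falls 3 among 10 tested, with a median of -0.19. Anxa8 (-0.63 ± 0.06, adjusted p = 0.00096), Anxa5 (-0.55 ± 0.08) and Anxa4 (-0.23 ± 0.06) fell, while Anxa9 (0.31 ± 0.07) and Anxa6 (0.22 ± 0.05) rose. Neither rise passed without mouse 4 or with the control pool's spread, nor did the fall of Anxa4, and Anxa6 failed without mouse 3 as well.

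Partners of Inava did not rise. Among 6 tested there were 0 rises and 2 falls, and at their selected probes Frmd4a (-0.38 ± 0.07) and Frmd4b (-0.28 ± 0.06), scaffold proteins that bind cytohesins, fell. Without the swapped array neither passed, at -0.17 and -0.13, and Frmd4a failed too where its probes were averaged. Of 4 transferrin and transferrin receptor genes, Ltf (2.06 ± 0.32, adjusted p = 0.00506) rose, and it belongs to the neutrophil markers as well. Trf, Tfrc and Tfr2 did not pass, and Trf averaged high in the mice but gave -0.62 in the swapped pool. Ectonucleotidase genes gave 2 rises and 0 falls among 7 tested. Entpd8 rose by 0.30 ± 0.06, and Entpd3, not well above background in the control channel of any array, was at least 1.54-fold higher (adjusted p = 0.0479); with the control pool's spread neither passed (0.051 and 0.135), and Entpd3 failed without mouse 3 or without mouse 4. With processed signals Entpd3 stood at 3.18.

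Intestinal epithelium has more genes than the 9, and the intestinal list behaved unevenly. Of 28 genes, 13 could be tested. Rises were found in 5 and falls in 2, with a median of 0.12. The rises were those of Cdhr2 and Cdhr5, protocadherins that link the tips of microvilli, of the keratin gene Krt20, of the membrane mucin gene Muc13, and of Vil1, the gene of the microvillus protein villin. Cdhr2 had ratios of 1.36, 1.06, 1.11 and 1.41 in the 4 mice in order, and 1.22 with dyes swapped (1.23 ± 0.08, adjusted p = 0.000158). Cdhr5 had 1.04, 0.94, 0.83 and 1.23 in the 4 mice in order, and 1.15 with dyes swapped (1.08 ± 0.08, adjusted p = 0.000268). Both protocadherin genes were thus higher on all 5 arrays.

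Krt20 spread widely, with 2.31 in mouse 1 against 0.76, 0.60 and 0.90 in the others and 1.66 with dyes swapped (1.40 ± 0.29, adjusted p = 0.0144), and its control channel was above background on 1 array. With an offset of 0 the value of Krt20 was 2.66, and with processed signals it was 4.26 ± 0.35, above the median of 4.18 of the 9 in that setting. Muc13 rose by 0.94 ± 0.13 (adjusted p = 0.00352) and Vil1 by 0.44 ± 0.10 (adjusted p = 0.02, its control channel above background on 2 arrays). Processed signals gave 2.41 for Vil1 and 1.56 for Muc13. With the control pool's spread 3 of the 5 passed, the exceptions being Krt20 (adjusted p = 0.0527) and Vil1 (0.0687). With both channels above background on all arrays required, 9 genes were left to test, without Krt20 and Vil1, and 3 rises stood. Fabp2, the intestinal fatty acid binding protein gene, fell by 0.81 (SE 0.11), and Treh, the gene of the brush border enzyme trehalase, by 0.60 (SE 0.11). Defining gut genes were missing from the signal: Cdx1, Cdx2, Alpi, Lct, Cdh17, Slc15a1, Tmprss15, Reg3b, Reg3g and Isx, 10 of 28, were not well above background on any array in either channel. The summed intensity of the list ran from 43130 to 53150 in the Fra-1hep channel and from 62650 to 64210 in the control channel. Such sums, here and below, follow the brightest probes of a list and may take in genes not above background. Dye bias does not cancel in them, so no change of a list is read from them.

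Markers of mucus-secreting cells gave 0 rises, 1 fall and 6 not passing among 7 tested. Pigr, the receptor that carries IgA into bile and mucus, fell by 0.79 (SE 0.07, adjusted p = 0.000448). Its log2 ratios were -0.23, -0.31, -0.45 and -0.50 in the 4 mice in order, and -1.21 with dyes swapped. The fitted fall was thus larger than in any mouse, and without the swapped array the value was -0.37. Agr2, Clca1, Atoh1, Retnlb and Tff1 were not above background on any array, and the summed intensity of the 15 genes was 14460 to 33480 in the Fra-1hep channel against 26430 to 38930 in the control channel.

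Pancreatic acinar genes were partly measurable. Of 26 with a probe, 14 were not above background on any array, among them the trypsinogen genes Prss1 and Prss2, the carboxypeptidase gene Cpb1, the lipase gene Pnlip and Cela2a. Of 9 tested, 2 rose and 0 fell, namely Amy2a5 (0.54 ± 0.07, adjusted p = 0.00187) and Ctrb1, with a median of 0.07. Amy2a5 had ratios of 0.32, 0.27, 0.09 and 0.33 in the 4 mice in order, and 0.83 with dyes swapped. Its fitted rise was thus larger than in any mouse, and without the swapped array it was 0.25. The summed intensity of the list was 4814 to 6286 in the Fra-1hep channel and 4277 to 4771 in the control channel. Fra-1hep signal was above background on all 5 arrays for 7 acinar genes, among them Amy2a5, Ctrb1, Ctrl, Cel and Clps. The control signal of these named genes was above background on all 5 arrays as well. Ctrl, Cel and Clps did not pass, at 0.10, 0.01 and 0.00. The part of acinar transcripts in the rises of Cela1 and Spink1 was not tested.

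Bile duct cells are the lumen-facing epithelium of the liver itself. Among 14 tested cholangiocyte markers there were 2 rises and 1 fall, with a median of 0.21. Sctr, the secretin receptor gene, was among the rises (0.25 ± 0.07), and Aqp1 fell by 0.48 (SE 0.12). Krt19 (0.47, adjusted p = 0.126), Krt7 (0.18), Epcam (0.10), Sox9 (0.01) and Spp1 (-0.29) did not pass. Mouse 2 went apart from the rest, with a list median of -0.09 against 0.48, 0.11 and 0.17 in the other mice and 0.22 with dyes swapped. Without mouse 2 there were 6 rises, and without mouse 1, 3 or 4 there was 1. Sctr, not measured in mouse 2, failed without mouse 1, 3 or 4, and Aqp1 failed without mouse 4 or the swapped array. Sctr failed too with its probes averaged, and Aqp1 with an offset of 0 and with processed signals. With the control pool's spread neither passed (adjusted p = 0.109 and 0.0821), and 1 rise and 0 falls were left. The summed intensity was 11560 to 16060 in the Fra-1hep channel and 12490 to 15310 in the control channel.

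Genes of general epithelial identity gave 4 rises and 0 falls among 12 tested, with a median of 0.13. Cdh1, which encodes E-cadherin, led them with 1.07, 0.58, 0.55 and 0.78 in the 4 mice in order, and 1.01 with dyes swapped (0.88 ± 0.10, adjusted p = 0.00158). The others were the splicing regulator gene Esrp2 (0.33 ± 0.06) and the tight junction genes Marveld3 (0.32 ± 0.06) and Ocln (0.26 ± 0.08). The call for Ocln failed without mouse 3, without mouse 4 and without the swapped array. It failed too without the dye term, with an offset of 0, without background correction, and with processed or deposited values. Nor did Ocln pass without the filter on dim probes, with its probes averaged or with the control pool's spread (adjusted p = 0.134 in the last). Portal fibroblast markers, of interest for Entpd2, had 0 rises, 2 falls and 5 not passing among 7 tested, with Thy1 at -0.27 ± 0.07 and Cd34 at -0.37 ± 0.08. With processed signals neither of these falls passed, and leaving out mouse 2 or mouse 3 ended that of Thy1. Their summed intensity was 2059 to 2333 in the Fra-1hep channel against 2191 to 2421 in the control channel.

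Neutrophil genes were higher in the same livers. Of 10 tested, 9 rose and 1, Elane, did not pass, with a median of 2.12. Mpo (2.74 ± 0.22), Camp (2.63 ± 0.30), S100a8 (2.60 ± 0.29), S100a9 (2.51 ± 0.30), Ngp (2.17 ± 0.27), Ltf and Retnlg (1.26 ± 0.19) were at least 2-fold higher. Mmp8 and Mmp9, not above background in the control channel of any array, were at least 1.53-fold and 1.29-fold higher, the call for Mmp9 failing without mouse 4 and with an offset of 0. With the control pool's spread neither passed (Mmp8 adjusted p = 0.0654, Mmp9 0.101). Processed signals gave 3.05 for Ngp and 2.17 for Retnlg. The list median was 1.49, 3.02, 1.26 and 1.61 in mice 1 to 4, so mouse 2 stood highest. Summed intensity was 20050 to 58720 in the Fra-1hep channel and 5501 to 6214 in the control channel. The part of these cells in the rises of the 9 was not tested.

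Of the 10 hepatocyte markers, 2 rose and 8 did not pass. These were Ahsg (0.71 ± 0.06) and Serpina1a (0.29 ± 0.07), with dye effects of 0.58 and 0.51; without the swapped array 7 rose, and Serpina1a failed without mouse 4.

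**Figure D4:**
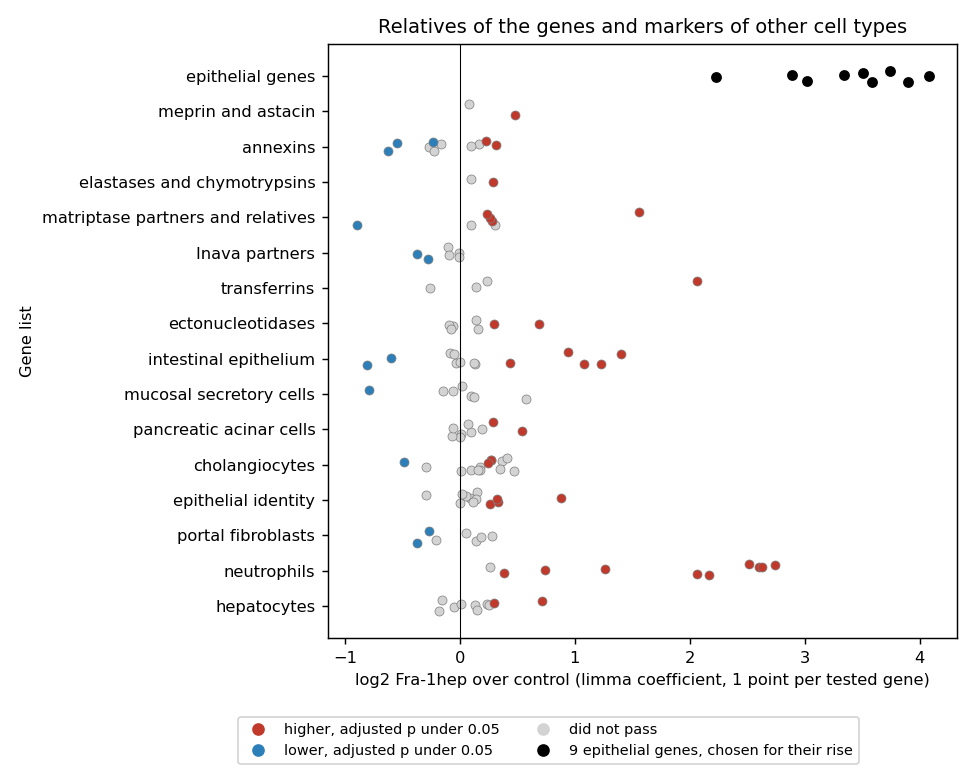
Fitted log2 change of Fra-1hep over control (horizontal axis) for each tested gene of the related lists with over 1 tested gene, in red where higher, blue where lower and grey where the test was not passed, under the 9 epithelial genes in black. The 9 lie between 2.22 and 4.08, and several neutrophil markers, among them Mpo at 2.74, lie above the 2.22 of Entpd2. With processed signals Krt20 (4.26), Entpd3 (3.18), Tmprss2 (2.45) and Vil1 (2.41) lie above the 2.35 of Entpd2 as well.

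The named genes whose log2 ratios over the 5 arrays came closest to those of the 9 were few. By the root mean square difference, Lrtm2 was closest to Meltf (0.22), Inava (0.26), Tff3 (0.31) and Mep1a (0.49). Enho, which encodes the secreted peptide adropin, was closest to Cela1 (0.09) and Anxa13 (0.21), and Lysmd2 to St14 (0.18) and Spink1 (0.31). Vill, which encodes a villin-like actin-binding protein, was closest to Entpd2 (0.17), with ratios of 2.20, 2.25, 1.92 and 2.47 in the 4 mice in order, and 2.27 with dyes swapped. The measure finds genes that rose by like amounts, and 5 arrays that share 1 control pool give no ground for more.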

How the data were processed

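Dual-channel Agilent mouse arrays were read from the scanner files, which hold raw median intensity and local background per spot, processed intensity with background removed and dyes balanced by the software, the log10 of the Cy5 to Cy3 ratio, and flags, per the file headers (Feature Extraction 10.7.3.1; 10.7 per the submitters' processing notes). The deposited series table holds log2 ratios; against the scanner ratios of 23066 probes its slope was 1.00 on each mouse array and -1.00 on the swapped one, so its sign is Fra-1hep over control. Its column medians were 0.13, 0.08, 0.04, 0.13 and -0.04, so it was not centred, and further steps are not given in the sources used here. RNA integrity exceeded 7.8 and labelling used 100 ng, per the labels' protocols.

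Median signals were corrected with limma 3.58.1 in R 4.3.3 (normexp, offset 50) and normalized by loess within arrays, with control spots and outliers at weight 0. Of 62976 spots per array, 189 outlier spots over all arrays were left out and 0 were saturated. Between 45.8% and 53.6% of spots exceeded background clearly in the Fra-1hep channel, and between 46.3% and 60.5% in the control channel. Spots of a probe were averaged. Accessions without version named 26056 of 55681 probes through a RefSeq table of GRCm38.p6, used for names and gene order alone. Probes were kept where 3 or more arrays showed either dye well above background (28101), and the brightest per gene stood for it (21521 features). Channel intensities were set between arrays by Aquantile; with 1 swap against 4 arrays, dye bias does not cancel in them.

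The model had a genotype coefficient and a dye intercept (lmFit, eBayes, Benjamini-Hochberg over all features, threshold 0.05); the spread comes from the 4 mice, with 3 residual and 4.02 prior degrees of freedom. The number of arrays limits the precision, and the median standard error was 0.066. Where the control channel was not above background on any array, a change is a bound: the mean Fra-1hep level divided by the control level, raised on each array to the lowest level of any probe above background. On simulated data of 21521 features with 200 changed, 100% of the changed ones were recovered.

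The 9 genes and all lists were chosen with earlier results of these data known. Named genes are the 9, Fosl1, the listed genes past the threshold with at least 2-fold changes or among the 4 smallest p-values of a list, direct relatives, and the closest gene by root mean square difference; other genes are named after their values were seen. Listed under its older name Spink3, Spink1 was counted once, among the 9. Alternatives covered the dye term, each array left out, background correction, processed and deposited values, centring, the filter, the probe per gene and the control pool's spread. Some genes counted in the lists are not reported here by name.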

Additional observations from a re-analysis of the deposited data

How the results depend on the processing

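The 9 genes kept their direction in all 15 alternatives. Their median log2 change was 3.51, and it moved by more than the spread among mice with an offset of 0 (3.95), with processed signals (4.18) and with deposited values (4.18). The deposited values gave nearly the results of the processed signals, so they are no separate evidence. The 2410 higher and 3323 lower features became 3644 and 4083 without the swapped array, and 1087 and 1766 where the error was widened as if a pool of 5 controls had the spread of the Fra-1hep animals. The 33 higher and 13 lower genes of the related lists became 18 and 8 in that last setting, and without each mouse in turn 25 to 37 were higher and 11 to 14 lower. Leaving out mouse 1 leaves the arrays of 1 slide and gave 2318 higher and 3178 lower features, with a median of 3.49 for the 9 genes. No paired analysis was possible because the mice were all compared with 1 control pool and the mice of the swapped pool are not named. Among the 9, dim control spots limit the size of the rises of Mep1a, Inava and Meltf most.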

Other observations

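The genes that flank the 9 on their chromosomes, taken as the nearest protein-coding gene on each side in the order of the RefSeq table, were looked up after the values of the 9 were seen. Of 18 such neighbours, 12 could be tested, of which 2 rose, 5 fell and 5 did not pass (limma with Benjamini-Hochberg adjustment), with a median log2 change of -0.18 and a range from -0.66 to 0.58. Over all features, 11.2% were higher and 15.4% lower, and whether the 12 tested neighbours differ from those shares was not tested. The rises were in Fam91a1, next to Anxa13 (0.24 ± 0.07, adjusted p = 0.0377), and Gpr25, next to Inava (0.24 ± 0.06, adjusted p = 0.0312). Npdc1, next to Entpd2 (-0.66 ± 0.11), Galnt6, next to Cela1 (-0.52 ± 0.09), Abcg1, next to Tff3 (-0.46 ± 0.09), Adgrf5, next to Mep1a (-0.39 ± 0.08) and Zbtb44, next to St14 (-0.28 ± 0.06) fell. No tested neighbour reached the 2.22 of the smallest rise among the 9. The 9 were chosen for their rise and the neighbours were not, so nothing follows from this.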
